A study of Homo sapiens with 6 samples.

Results

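Purine and pyrimidine synthesis enzymes were described in the human leukaemia line ME-1, myeloid cells with inv(16), the inversion that fuses CBFB to MYH11. Cells were exposed for 6 h to 1 µM AI-10-49, a small molecule that inhibits the fusion protein CBFβ-SMMHC, or to its solvent DMSO, with 3 independent experiments per treatment. Both groups carry the inversion and come from 1 cell line, so they have no counterpart without the fusion. RNA abundance was given as FPKM, fragments scaled to transcript length and library size, which sets genes of different length on 1 scale. Of 10 listed genes, 5 (PPAT, PAICS, ATIC, IMPDH1 and UMPS) had a row of their own, and CTPS1 had one under its older symbol CTPS, among 6339 rows in all. NME1 stood only in a row shared with NME2 and the readthrough NME1-NME2, and GART, IMPDH2 and CAD were not analysed here.

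Cells build purines stepwise on phosphoribosyl pyrophosphate (PRPP) until the ring is closed as IMP, from which separate branches lead to AMP and GMP. Pyrimidines are built as a free ring that is then joined to PRPP to give UMP, the precursor of UTP and CTP. Dividing leukaemia cells use these routes to supply RNA and DNA synthesis, and several of the genes are known MYC targets. In bulk RNA, fewer cells of a type and less RNA per cell cannot be told apart.

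All 6 enzymes with their own row were lower with AI-10-49. IMPDH1 and CTPS1 fell most, to 34.0% and 36.8% of the DMSO mean. PAICS stood at 47.3%, PPAT at 57.9%, ATIC at 63.8% and UMPS at 73.6% of it. Each of the 6 passed the threshold (limma, Benjamini-Hochberg adjusted p under 0.05), and in each the groups did not overlap. That count and each adjusted p-value have to be read against the table itself, which appears to hold rows selected on these libraries. Of 6230 rows tested, 95.3% passed in either direction, 49.1% passed as lower, 46.2% passed as higher, and in 96.2% the groups did not overlap. The median log2 fold change was -0.92 over the 6 enzymes and -0.28 over all rows. For a single gene, an exact two-sided permutation test of 3 against 3 libraries cannot go below p = 0.1, and each of the 6 gave p = 0.1.

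**Figure D1:**
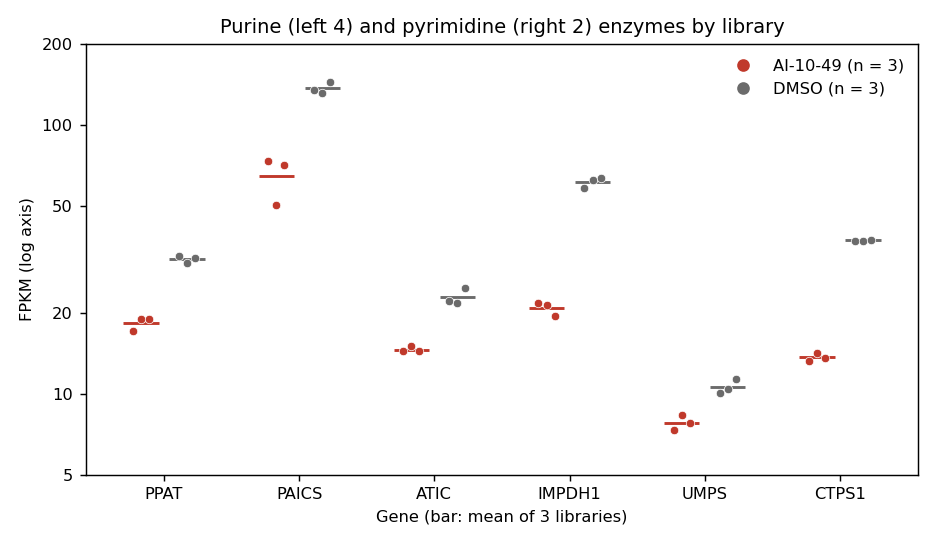
FPKM on a log axis of the 6 enzymes in each library (points) with the mean of 3 libraries (bars), AI-10-49 in red and DMSO in grey. In every gene the AI-10-49 libraries lie below the DMSO libraries, and PAICS has 1 AI-10-49 library, replicate 2, at 50.3 FPKM below the other AI-10-49 libraries.

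The libraries had to be looked at first, because AI-10-49 replicate 2 stands apart. Its highest FPKM was 159, against 1843 and 1877 in the other AI-10-49 libraries and 1717 to 2028 with DMSO. Its shortfall grew with abundance. Among rows at 1 to 10 FPKM in the other AI-10-49 libraries its median was 110.8% of their mean. At 10 to 30 FPKM it was 100.3%, at 30 to 60 FPKM 85.0%, at 60 to 100 FPKM 68.7%, and above 100 FPKM 50.2%. IMPDH1, CTPS1, PPAT, ATIC and UMPS themselves read between 104% and 111% of the others in this library. UMPS, the highest of these, stood at 73.6% of the DMSO mean, or 71.1% without this library. PAICS was the 1 enzyme of the 6 within the range of the shortfall, at 69.8%. The part of this library in results not recomputed without it was not tested. Of 10 myeloid blast markers, 8 had a row, SPI1, CEBPA, KIT, AZU1, LYZ, CD33, ELANE and PRTN3, while MPO and CD34 were not analysed here. The 8 summed to between 193 and 280 FPKM per AI-10-49 library and between 414 and 460 FPKM per DMSO library. SPI1, the most abundant, stood at 137, 73.4 and 133 FPKM with AI-10-49, lowest in replicate 2, against 154, 145 and 162 FPKM with DMSO. It did not pass the threshold (limma adjusted p = 0.142). CD33, ELANE and PRTN3 had means of 3.80, 1.14 and 0.38 FPKM with AI-10-49. With DMSO their means were 8.41, 2.05 and 1.06 FPKM.

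**Figure D2:**
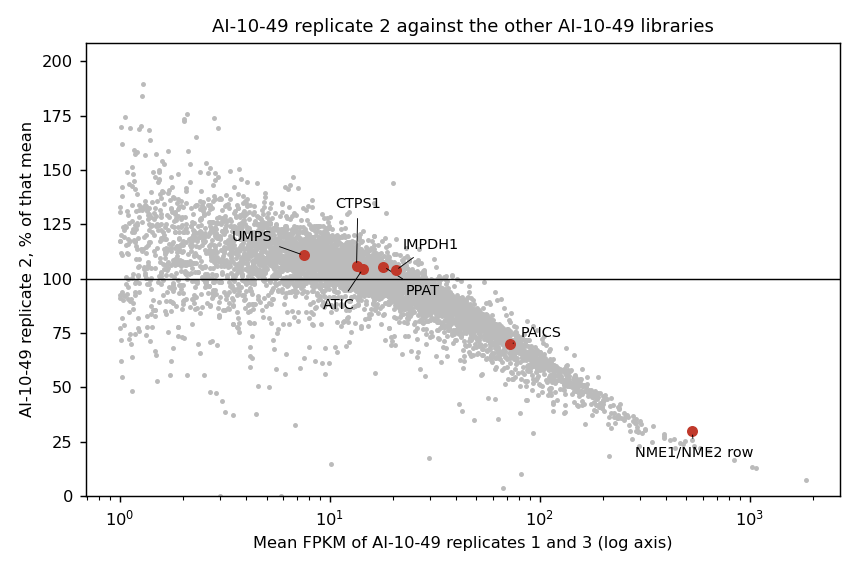
AI-10-49 replicate 2 as a percent of the mean of AI-10-49 replicates 1 and 3 (vertical axis) against that mean in FPKM (horizontal log axis), 1 grey point per row, with the synthesis enzymes and the shared NME1/NME2 row in red. PAICS lies at 69.8% and the NME1/NME2 row at 29.8%, on the falling part of the cloud, and the other 5 enzymes lie close to 100%.

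PPAT encodes the amidotransferase of the first committed step of purine synthesis. It stood at 17.1, 19.0 and 19.0 FPKM with AI-10-49, against 32.5, 30.7 and 31.9 FPKM with DMSO. All 3 AI-10-49 libraries lay well below all 3 DMSO libraries. The log2 fold change was -0.76 ± 0.07 (SE, limma adjusted p = 4.31e-07), and 16.4% of all rows had a fold change at or below it.

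PAICS encodes a bifunctional enzyme in the middle of the same route. Its level was 73.1, 50.3 and 70.9 FPKM with AI-10-49, against 135, 131 and 144 FPKM with DMSO. It was the most abundant of the 6 transcripts in both groups. The log2 fold change was -1.09 ± 0.19 (SE, limma adjusted p = 0.000171), the widest error of the 6. Without AI-10-49 replicate 2 it was -0.92, at 52.6% of the DMSO mean, and under quantile normalization it was -0.65, with the call kept in both. The ratio of PAICS to PPAT was 4.28, 2.64 and 3.74 with AI-10-49 and 4.16, 4.27 and 4.52 with DMSO. Here the groups overlapped, and the exact two-sided permutation p for the ratio was 0.2. Its difference on the log2(FPKM + 1) scale, -0.33, was -0.13 without AI-10-49 replicate 2 and 0.076 under quantile normalization, so the data do not fix its direction.

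PPAT and PAICS lie head to head on chromosome 4, and their start sites in RefSeq (GRCh38.p14) are 137 bases apart on opposite strands. Their promoter windows, each running from 250 bases before the start to 50 after it, share 236 bases, so both are shown, with that of ATIC, as the 3 enzymes whose windows hold the hexamer CACGTG. This motif, an E-box that dimers of MYC and MAX can bind, reads the same on both strands and is in capitals. PPAT is chr4:56435566-56435865 on the minus strand, PAICS chr4:56435502-56435801 on the plus strand and ATIC chr2:215311809-215312108 on the plus strand.
PPAT: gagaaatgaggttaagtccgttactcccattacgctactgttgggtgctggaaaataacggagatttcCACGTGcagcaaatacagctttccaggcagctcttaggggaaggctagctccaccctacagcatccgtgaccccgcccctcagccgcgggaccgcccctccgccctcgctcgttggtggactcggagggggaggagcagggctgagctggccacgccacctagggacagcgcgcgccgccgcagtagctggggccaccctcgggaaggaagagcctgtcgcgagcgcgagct
PAICS: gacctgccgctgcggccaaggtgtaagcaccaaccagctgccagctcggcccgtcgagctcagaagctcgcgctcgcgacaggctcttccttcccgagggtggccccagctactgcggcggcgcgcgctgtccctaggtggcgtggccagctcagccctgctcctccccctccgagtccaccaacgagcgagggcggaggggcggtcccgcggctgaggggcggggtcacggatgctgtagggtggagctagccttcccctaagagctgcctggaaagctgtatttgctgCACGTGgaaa
ATIC: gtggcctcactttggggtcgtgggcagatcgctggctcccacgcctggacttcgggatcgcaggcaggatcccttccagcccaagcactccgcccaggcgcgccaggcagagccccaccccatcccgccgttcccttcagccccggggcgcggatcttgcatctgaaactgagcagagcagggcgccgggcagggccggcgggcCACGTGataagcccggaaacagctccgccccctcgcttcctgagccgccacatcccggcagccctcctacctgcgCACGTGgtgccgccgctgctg

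In PPAT and PAICS the capitals mark the same hexamer, chr4:56435792-56435797. It begins 182 bases before the PPAT start and at base 41 counted from the PAICS start used here. ATIC has a pair of hexamers, beginning 46 bases before its start and at base 30 of its transcript. Over all RefSeq promoters, 7.26% of 35116 windows hold at least 1 CACGTG and 0.664% hold 2 or more without overlap, and 8.77% of 27305 genes have it in at least 1 window. The windows of IMPDH1, UMPS and CTPS1, and the remaining windows of PAICS (chr4:56410257-56410556 and chr4:56436010-56436309), do not have these letters. A match is a description of sequence and not of binding. RefSeq places the PAICS start of the first of these windows inside the PPAT gene on the opposite strand. The sources used here do not say whether the counting used strand. Reads from the overlap could therefore have been given to either gene.

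ATIC encodes the bifunctional enzyme that closes the purine ring to IMP. Its level was 14.4, 15.04 and 14.4 FPKM with AI-10-49, against 22.2, 21.7 and 24.7 FPKM with DMSO. The AI-10-49 libraries were the tighter group, at 14.6 ± 0.38 FPKM against 22.9 ± 1.62 FPKM with DMSO (SD, n = 3 each). The log2 fold change was -0.61 ± 0.07 (SE, limma adjusted p = 2.5e-06), and 25.0% of rows had a fold change at or below it.

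IMPDH1 encodes an IMP dehydrogenase, the rate-limiting enzyme of the branch to guanine nucleotides. Its level was 21.7, 21.4 and 19.5 FPKM with AI-10-49, against 58.1, 62.2 and 63.7 FPKM with DMSO. This was the deepest fall of the 6, 2.94-fold lower. The log2 fold change was -1.51 ± 0.08 (SE, limma adjusted p = 3.83e-09), and 2.01% of rows had a fold change at or below it. Its 95% interval, -1.68 to -1.34, lies below those of PPAT (-0.91 to -0.61), ATIC (-0.76 to -0.47) and UMPS (-0.55 to -0.24), and overlaps those of CTPS1 and PAICS. The paralog IMPDH2 was not analysed here, so the total of both enzymes is not known from these values.

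UMPS encodes the bifunctional enzyme that joins orotate to PRPP and yields UMP. Its level was 7.34, 8.36 and 7.76 FPKM with AI-10-49, against 10.1, 10.5 and 11.3 FPKM with DMSO. The groups were apart, by a smaller distance than in the other 5 genes. The log2 fold change was -0.40 ± 0.07 (SE, limma adjusted p = 0.000179). It differed from the median of all rows by -0.12, or by -0.39 under quantile normalization, and 40.8% of rows had a fold change at or below it.

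CTPS1 encodes a CTP synthase, which aminates UTP to CTP. Its level was 13.3, 14.2 and 13.6 FPKM with AI-10-49, against 37.1, 37.2 and 37.4 FPKM with DMSO. The spread within each group was small, an SD of 0.47 FPKM with AI-10-49 and of 0.14 FPKM with DMSO. The log2 fold change was -1.38 ± 0.06 (SE, limma adjusted p = 9.39e-10), and 2.84% of rows had a fold change at or below it. By level, the order with AI-10-49 was PAICS, IMPDH1, PPAT, ATIC, CTPS1 and UMPS. With DMSO it was PAICS, IMPDH1, CTPS1, PPAT, ATIC and UMPS, so CTPS1 held the fifth place with AI-10-49 and the third with DMSO. No neighbours in either order overlapped in their libraries, though ATIC (14.6 FPKM) and CTPS1 (13.7 FPKM) were close with AI-10-49.

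The paralog CTPS2, another CTP synthase, moved the other way. Its level was 6.39, 7.36 and 7.13 FPKM with AI-10-49, against 5.03, 4.54 and 5.17 FPKM with DMSO. It rose by 0.43 ± 0.08 on the log2 scale (SE, limma adjusted p = 0.000202). The ratio of CTPS1 to CTPS2 was 2.08, 1.93 and 1.90 with AI-10-49, against 7.37, 8.19 and 7.22 with DMSO. CTPS1 made up 66.3% ± 1.08 of the summed FPKM of the pair with AI-10-49 and 88.3% ± 0.68 with DMSO (SD, n = 3 each). The sum was 20.6 ± 0.94 FPKM with AI-10-49 and 42.1 ± 0.42 FPKM with DMSO. On the log2(FPKM + 1) scale the difference of the ratio between the groups was -1.81, with an exact two-sided permutation p = 0.1, the smallest that 3 against 3 can give.

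The row shared by NME1 and NME2, nucleoside diphosphate kinases that make triphosphates from diphosphates, was more abundant than any of the 6 enzymes in every library. It stood at 539, 159 and 529 FPKM with AI-10-49, against 711, 700 and 823 FPKM with DMSO. The value of 159 was the highest of any row in AI-10-49 replicate 2. The row did not pass the threshold (log2 fold change -1.06 ± 2.17 SE, limma adjusted p = 0.636). That SE is moderated by limma with the trend of variance on the mean, so it is not the spread of this row alone. The mean of the AI-10-49 libraries was 54.9% of the DMSO mean, or 71.7% without that replicate. Reads of the 2 kinases cannot be told apart in this row.

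The rest of nucleotide metabolism was read from 10 further lists with 92 genes, of which 47 had a tested row of their own. Of these, 33 were lower, 12 were higher and 2 did not pass, against 49.1% lower and 46.2% higher over all rows. Their median log2 fold change was -0.54, against -0.28 over all rows. The share called in either direction is close to that of the table, so the counts below describe the lists and set none of them apart. UCKL1, UPP1, UPB1 and NT5E reached the 1 FPKM minimum only in the group where they were higher, so their calls support no count.

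**Figure D3:**
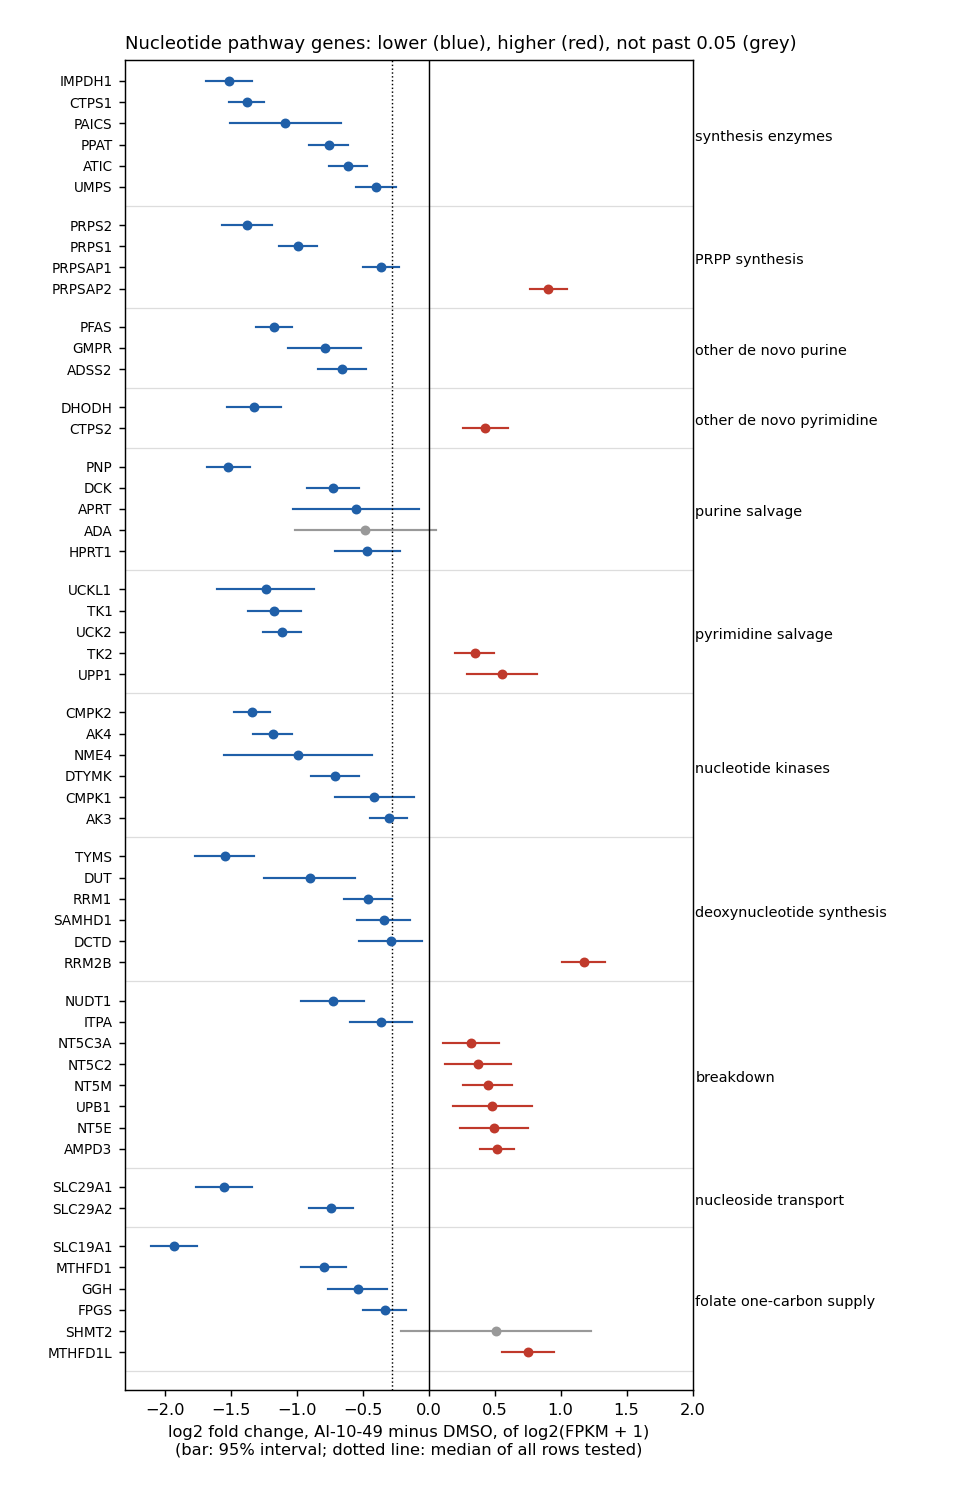
Log2 fold change (AI-10-49 minus DMSO, of log2(FPKM + 1)) with its 95% interval for 53 nucleotide pathway genes with their own tested row, grouped by list, lower in blue, higher in red and not past the threshold in grey. The synthesis enzymes run from -1.51 (IMPDH1) to -0.40 (UMPS), and the dotted line marks the median of all rows, -0.28. To the right of 0 lie 6 of 8 breakdown genes, with NT5E and UPB1 tested only through their AI-10-49 mean.

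PRPP, the sugar donor of both routes, is made by PRPP synthetases. PRPS2 stood at 3.45, 4.29 and 3.28 FPKM with AI-10-49, against 11.0, 10.5 and 11.7 FPKM with DMSO. PRPS1 stood at 16.3, 16.0 and 15.3 FPKM with AI-10-49, against 31.7, 31.3 and 34.3 FPKM with DMSO. Both fell, by 1.37 and 0.99 on the log2 scale (limma adjusted p = 1.87e-08 and 3.06e-08). The genes of their associated proteins split, since PRPSAP1 fell by 0.36 (limma adjusted p = 0.000166) and PRPSAP2 rose by 0.90 (limma adjusted p = 5.57e-08). PRPSAP2 stood at 18.7, 19.0 and 18.4 FPKM with AI-10-49, against 10.1, 8.87 and 9.59 FPKM with DMSO.

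**Figure D4:**
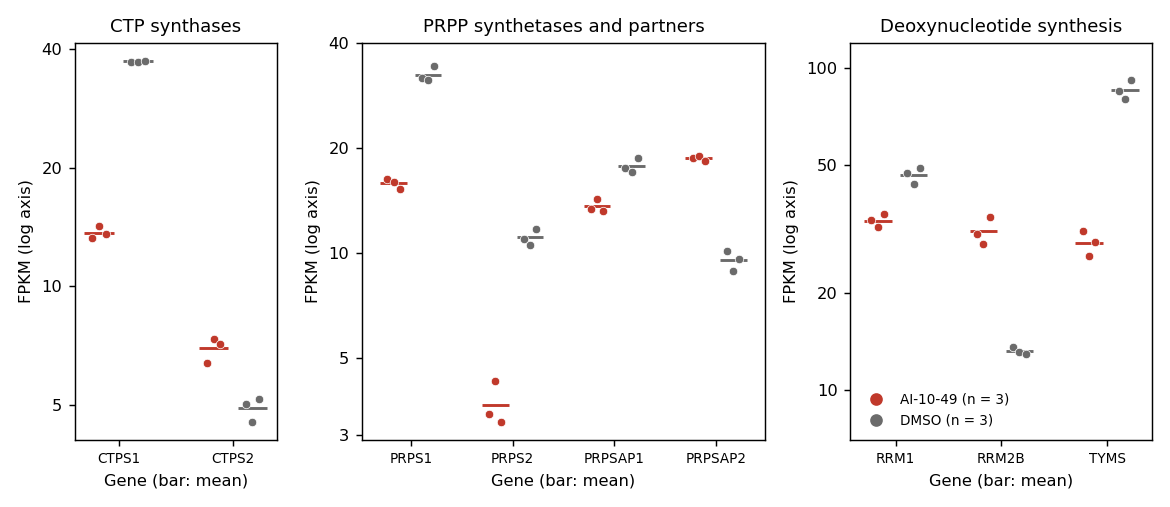
FPKM on log axes of related genes in each library (points) with means (bars), AI-10-49 in red and DMSO in grey. CTPS1, PRPS1, PRPS2, PRPSAP1, RRM1 and TYMS are lower with AI-10-49, while CTPS2, PRPSAP2 and RRM2B are higher, and no gene shown has overlapping groups.

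In the purine route itself, PFAS, which acts between PPAT and PAICS, stood at 7.86, 8.14 and 7.83 FPKM with AI-10-49, against 18.6, 20.2 and 18.6 FPKM with DMSO. Its log2 fold change was -1.17 ± 0.06 (SE, limma adjusted p = 4.18e-09). All 3 measured members of that list fell, the others being GMPR (-0.79, or -0.51 under quantile normalization), which turns GMP back to IMP, and ADSS2 (-0.66), listed as ADSS, of the branch to AMP. In the pyrimidine route DHODH, the mitochondrial enzyme that makes orotate, stood at 2.60, 2.39 and 1.86 FPKM with AI-10-49, against 6.74, 7.30 and 7.54 FPKM with DMSO. It acts just before UMPS, and its log2 fold change was -1.33 ± 0.09 (SE, limma adjusted p = 5.36e-08).

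Salvage genes recycle bases and nucleosides. Of 5 measured purine salvage genes 4 fell, PNP (-1.52), DCK (-0.72), APRT (-0.55) and HPRT1 (-0.47). APRT did not pass when any single DMSO library was left out (limma adjusted p from 0.0621 to 0.111), nor under quantile normalization (-0.10, limma adjusted p = 0.0819), and it was -0.31 without AI-10-49 replicate 2. HPRT1 was at -0.31 under quantile normalization. ADA, named after its values were seen, did not pass (log2 fold change -0.48, limma adjusted p = 0.0776) but did without AI-10-49 replicate 2, at -0.26, and its sign turned under quantile normalization, at 0.067. PNP, purine nucleoside phosphorylase, stood at 16.6, 16.7 and 18.5 FPKM with AI-10-49, against 51.5, 48.8 and 53.7 FPKM with DMSO. Pyrimidine salvage genes split, since of 5 measured 3 fell and 2 rose, or 2 and 1 with a minimum of 5 FPKM. Those that fell were UCKL1 (-1.24), the thymidine kinase TK1 (-1.17) and the uridine-cytidine kinase UCK2 (-1.11). The uridine phosphorylase UPP1 (0.56) was 1 of those that rose, at 0.99, 1.42 and 1.31 FPKM with AI-10-49 and 0.41, 0.62 and 0.54 FPKM with DMSO. With a pseudocount of 0.1, the log2 fold changes of UCKL1 and UPP1 were -1.94 and 1.11. Both measured nucleoside transporter genes fell, SLC29A1 (-1.55) and SLC29A2 (-0.74). SLC29A1 stood at 32.5, 29.6 and 29.8 FPKM with AI-10-49, against 90.5, 92.3 and 92.5 FPKM with DMSO.

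All 6 measured nucleotide kinase genes fell, with CMPK2 (-1.34), AK4 (-1.18), NME4 (-0.99) and the thymidylate kinase DTYMK (-0.71) ahead. NME4 was at -0.47 under quantile normalization. CMPK1 (-0.41), named after its values were seen, was at -0.27 without AI-10-49 replicate 2 and did not pass under quantile normalization (limma adjusted p = 0.0615). Of 6 measured genes listed under deoxynucleotide synthesis, 5 fell and 1 rose. Among those that fell was SAMHD1 (-0.34), named after its values were seen, which breaks deoxynucleotides down. DCTD (-0.29), named after its values were seen, did not pass without DMSO replicate 2, without DMSO replicate 3 or under quantile normalization (limma adjusted p = 0.0642, 0.077 and 0.357), and was at -0.19 without AI-10-49 replicate 2. TYMS, thymidylate synthase, stood at 31.2, 25.98 and 28.7 FPKM with AI-10-49, against 84.7, 80.0 and 91.7 FPKM with DMSO, a log2 fold change of -1.55. DUT (-0.90, or -0.55 with quantile normalization and no AI-10-49 replicate 2), which removes dUTP, and RRM1 (-0.46), the large subunit of ribonucleotide reductase, fell as well. The gene that rose was RRM2B, the p53-inducible small subunit of ribonucleotide reductase, at 30.4, 28.5 and 34.5 FPKM with AI-10-49 and 13.6, 13.1 and 12.9 FPKM with DMSO. Its log2 fold change was 1.17 ± 0.07 (SE, limma adjusted p = 1.96e-08).

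Of 8 measured genes of nucleotide breakdown and clean-up, 6 were higher and 2 lower, or 4 and 2 with a minimum of 5 FPKM. NT5M, named after its values were seen, reached 5 FPKM only with AI-10-49, where it was higher (mean 5.83 against 4.01 FPKM). The count at that minimum therefore has the limit given above for NT5E and UPB1. AMPD3, an AMP deaminase, stood at 18.8, 19.4 and 19.2 FPKM with AI-10-49, against 13.3, 13.4 and 12.6 FPKM with DMSO, a log2 fold change of 0.52. The ectonucleotidase NT5E (0.49) and UPB1 (0.48), of pyrimidine breakdown, rose at low FPKM (0.81 and 0.86 with a pseudocount of 0.1), and NUDT1 (-0.73), which clears oxidized nucleotides, fell. Among 6 folate genes, which supply one-carbon units to purine and thymidylate synthesis, 4 fell, 1 rose and 1 did not pass. SLC19A1, the reduced folate carrier, stood at 4.92, 5.71 and 4.397 FPKM with AI-10-49, against 21.2, 21.8 and 22.3 FPKM with DMSO, a log2 fold change of -1.93 ± 0.08 (SE, limma adjusted p = 4.42e-10). MTHFD1 (-0.80), the cytosolic enzyme, and GGH (-0.54), which trims folate polyglutamates, fell, and MTHFD1L (0.75), the mitochondrial counterpart of MTHFD1, rose. SHMT2, named after its values were seen, was the gene that did not pass, at 205, 90.3 and 201 FPKM with AI-10-49 and 104, 107 and 114 FPKM with DMSO. It passed as higher without AI-10-49 replicate 2 (log2 fold change 0.90, limma adjusted p = 3.78e-07) and under quantile normalization (1.15, limma adjusted p = 2.34e-07), and was at 0.31 and 0.32 without AI-10-49 replicates 1 and 3.

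MYC stood at 27.9, 23.4 and 25.8 FPKM with AI-10-49, against 235, 233 and 242 FPKM with DMSO. For the 3 enzymes most abundant with DMSO, the most similar rows were sought among 6028 rows of 1 gene by the root-mean-square difference of log2(FPKM + 1) over the 6 libraries, each profile set to 0 at its DMSO mean. For PAICS they were ARHGDIA (0.030) and ALYREF (0.046), for IMPDH1 KLF16 (0.034) and CBX6 (0.047), and for CTPS1 PUS7 (0.036) and WEE1 (0.037). ARHGDIA and ALYREF, at means of 156 and 111 FPKM with DMSO, were abundant as PAICS was (137 FPKM). The part of the shortfall of AI-10-49 replicate 2 in their likeness to PAICS was not tested. These are descriptions of 6 libraries in 2 groups.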

How the data were processed

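The authors deposited a table of FPKM per gene, 1 column per library, for 6339 rows, of which 198 name several genes. Per the submitters' processing notes, Bowtie2 2.1.0, Cufflinks 2.2.0, Cuffdiff and build hg19 were used; their settings, the selection of rows and the scaling between libraries are not given in the sources used here. Depth is unknown: ratios of low FPKM between DMSO libraries lay near ratios of whole numbers (within 0.5%) about as often as after a fixed shift (85.9% to 89.2% against 85.7% to 89.5% of 474 rows), so reads were not recovered and no count model was used.

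Log2(FPKM + 1) was fitted in R 4.3.3 with limma 3.58.1 (two-sided test with a trend of variance on the mean, AI-10-49 over DMSO) on the 6230 rows whose mean reached 1 FPKM in either group, and p-values were adjusted by Benjamini-Hochberg over all of them, with a threshold of 0.05. The rows appear selected on these same libraries, so the adjusted p-values may not hold false discoveries to that rate. Fold changes on this scale understate those of low FPKM. The fit was checked on simulated data. The simulated libraries had no selection of rows on their values and no library like AI-10-49 replicate 2, so the check does not cover these. The named genes were the members, MYC and up to 4 genes of largest change past the threshold in each list. Beside these stand lineage markers, the most similar rows, genes of shared rows and genes marked as named after their values were seen. CTPS was matched to CTPS1 by RefSeq synonym. Some genes of the lists are not reported here. Members and lists were chosen with earlier results of these data known. Promoters are RefSeq's, on GRCh38.p14, another build than the authors'. Exact permutation tests used SciPy 1.17.1. The planned ratio of IMPDH1 to IMPDH2 was not computed, because IMPDH2 was not analysed here.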

Additional observations from a re-analysis of the deposited data

How the results depend on the processing

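The 6 enzymes kept their direction and call in all 90 values under 15 alternatives (limma without the trend, median scaling, quantile normalization with and without AI-10-49 replicate 2, each library left out, the replicate block, a minimum of 0 or 5 FPKM, and pseudocounts of 0.1 or 0.5). Quantile normalization without that library and both ratios were added after seeing the data. The median of all rows was -0.06 on the log2 scale under quantile normalization and -0.28 as deposited. Relative to those medians IMPDH1 lay at -1.33 and -1.24, CTPS1 at -1.28 and -1.10, and UMPS at -0.39 and -0.12. The ratio of PAICS to PPAT reversed under quantile normalization, at a log2 difference of 0.076, or 0.072 without AI-10-49 replicate 2, and the cause was not tested. The ratio of CTPS1 to CTPS2 stayed between -1.93 and -1.73. Of 715 values for 48 other genes, 11 lost the call, 5 gained it and 1 reversed, ADA at 0.067 under quantile normalization. With the replicate block 6015 rows passed, against 5939 without it, and all 6 enzymes passed as lower. Deviations of same-numbered libraries correlated at r = -0.15, 0.147 and 0.247 across genes. AI-10-49 replicates 2 and 3 correlated best with the DMSO library of their own number, and replicate 1 with DMSO replicate 3 (0.205). As these values were mixed and the experiments are described as independent, the numbers were not treated as pairs. The ratio of IMPDH1 to IMPDH2 was computed under no setting. With depth unknown, precision rests on the spread of 3 libraries per group, moderated in limma by the trend of variance over all rows.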

Other observations

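Other nucleotide genes stood in rows shared with a neighbour and were left out of the counts. The row of RRM2, the cell cycle regulated small subunit of ribonucleotide reductase, with C2orf48 stood at 17.4, 14.7 and 13.9 FPKM with AI-10-49, against 67.3, 66.9 and 75.0 FPKM with DMSO. Its log2 fold change was -2.12 ± 0.09 (SE, limma adjusted p = 6.25e-10), opposite in direction to that of RRM2B. The row of TYMP, thymidine phosphorylase, with SCO2 stood at 17.5, 19.6 and 16.3 FPKM with AI-10-49, against 28.1, 30.95 and 35.3 FPKM with DMSO. The row of AK1, an adenylate kinase, with ST6GALNAC6 stood at 9.02, 9.59 and 8.72 FPKM with AI-10-49, against 10.3, 11.99 and 13.4 FPKM with DMSO. In each of these rows the groups did not overlap, and how the values divide between the genes of a row is not known.

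Marker genes of other blood lineages had rows too. Of B lymphoid markers CD79B stood at 8.09, 9.48 and 9.09 FPKM with AI-10-49, against 23.2, 23.6 and 26.9 FPKM with DMSO, and CD79A was at 0.63 to 1.12 FPKM with AI-10-49 and 1.56 to 3.06 FPKM with DMSO. Of T and NK markers CD3D stood at 16.1, 16.3 and 17.0 FPKM with AI-10-49, against 32.8, 31.1 and 32.7 FPKM with DMSO. CD3E was at 0.21 to 0.85 FPKM with AI-10-49 and at 1.23 to 1.44 FPKM with DMSO, and CD7 was higher with AI-10-49, at 2.82 to 2.92 FPKM, than with DMSO, at 1.31 to 2.29 FPKM. The erythroid factor KLF1 stood at 3.28 to 4.004 FPKM with AI-10-49 and at 8.76 to 9.60 FPKM with DMSO. The fibroblast markers were not analysed here. The part of these levels in the results on the enzymes was not tested.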
